A study of Rattus norvegicus with 15 samples.

Results

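Lumbar spinal cord of rats with a ligated sciatic nerve that had received any of 3 herbal preparations was compared with cord of sham-operated rats. The comparison used 12 of the 15 libraries of the series, chosen by their titles. Of these, 9 were from treated ligated rats, 3 each from the groups CCI+YZP, CCI+YH and CCI+BZ, and 3 were from the group Sham. The 3 untreated CCI libraries were left out of the tests, except in 1 alternative fit that held all 15 libraries. All rats were adult male Sprague-Dawley rats, and the tissue was the L4 to L6 cord on the operated side, taken on postoperative day 10. CCI stands for chronic constriction injury, here 4 loose ligatures about 1 mm apart around the left sciatic nerve, which every treated rat carried. Sham rats had the nerve exposed and left unligated. YZP is Yuan-Hu Zhi Tong Prescription, given at 10.8 g of crude drug per kg, while YH was given at 7.2 g per kg and BZ at 3.6 g per kg. Dosing ran for 5 days and ended on day 10, having begun on day 6 after surgery, so preparation and dose cannot be told apart. No sham group given a preparation is among the samples, so ligation and treatment cannot be told apart either. The ligated groups held 7 rats each and are represented by 3 libraries each, which are taken as separate rats.

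Loose ligation of the sciatic nerve damages many of its axons and is a standard model of neuropathic pain. The injured sensory fibres end in the dorsal horn of the lumbar cord, where microglia and astrocytes react and inhibitory transmission can weaken over the following days. The motor neurons that send axons through the same nerve also lie in these segments. The prescription pairs Corydalis rhizome (Yuan Hu), a source of tetrahydropalmatine and related alkaloids, with Angelica dahurica root (Bai Zhi), a source of coumarins. The labels do not spell out YH and BZ. Bulk cord RNA pools all of these cells, so fewer cells of a type and less RNA per cell cannot be told apart.

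Genes are given by Ensembl identifier, because the count tables hold no gene names and 0 of their identifiers could be matched to a symbol in the reference table used here. For that reason the lumbar cord label could not be checked against marker genes, no gene's function can be stated, and no sequence is shown. The identifiers printed are the 2 with the smallest p in each direction. Library totals ranged from 15093246 to 20711139 counts in treated rats and from 19650947 to 20446353 in sham. In a principal component analysis of log2 CPM (counts scaled to library size), the leading component held 24% of the variance and placed sham libraries at -24 to -19.1. Scores ran from -4.32 to 27.3 for CCI+YZP, from -1.45 to 27.3 for CCI+YH and from -19.8 to 29.4 for CCI+BZ. CCI+BZ replicate 3 thus lay among the sham libraries, and CCI+BZ replicate 1 lay farthest from them. The 3 most abundant genes took 8.49% to 9.6% of counts in sham and 6.76% to 9.18% in treated rats (exact permutation test, two-sided p = 0.123). That share was high at the sham end of the component and low at the other, and its part in the results was not tested beyond its use as a covariate.

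Against sham, 7 of 15294 genes passed an edgeR adjusted p under 0.05 in the mean of the 3 treated groups, which is 0.0458% of the genes tested. Of these, 6 were lower (0.0392%) and 1 was higher (0.00654%) in treated cord. Most were small shifts between tight groups: the 7 genes had a median absolute log2 fold change of 0.55, against 0.09 over all genes. An unadjusted edgeR p under 0.05 was reached by 1944 genes, or 12.7% (1044 higher, 900 lower). That cut also lets through genes with no difference. At an adjusted p under 0.1 there were 32 (11 higher, 21 lower), or 0.209%. How many genes passed depended on the tool. DESeq2 called 246 (1.61%, 147 higher, 99 lower) and limma voom with sample quality weights called 284 (1.86%, 138 higher, 146 lower), with all 7 among each. Both of those tools called 172 genes, with the same direction in 172. Limma voom without the weights called 7 (1 higher, 6 lower), of which 6 were also called by edgeR. The quality weight was 2.35 for Sham replicate 1, and 0.779 and 0.777 for Sham replicates 2 and 3. With single libraries removed, the edgeR count dropped to 2 (Sham replicate 3 removed, or CCI+BZ replicate 2) or to 3 (Sham replicate 1, CCI+YZP replicate 3 or CCI+YH replicate 2). It went up to 11 when CCI+BZ replicate 1 was removed and to 21 when CCI+BZ replicate 3 was. It was 1 when the share held by the 3 top genes was a covariate, 1 with the 9 treated libraries as a single group and 62 without the CCI+BZ group.

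**Figure D1:**
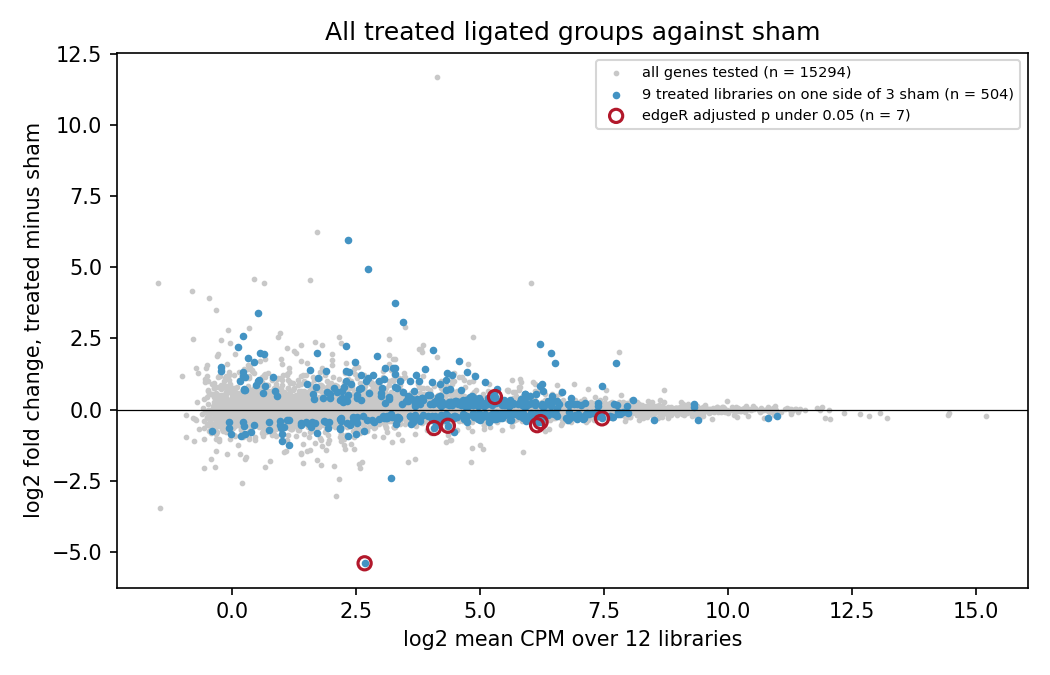
Each point is a gene, with log2 mean CPM over the 12 libraries on the horizontal axis and the log2 fold change of treated against sham on the vertical axis. Red rings mark the 7 called genes, of which 6 lie below 0, and blue points mark the 504 genes whose 9 treated libraries all lay on one side of the 3 sham libraries.

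ENSRNOG00000047565 was the gene with the smallest edgeR p and the only gene called by edgeR with a change of more than 2-fold. Sham libraries held 32.5, 28.9 and 9.95 CPM, from 647, 593 and 188 counts. CCI+YZP libraries held 0.634, 0.715 and 0.439 CPM, CCI+YH libraries 0.855, 0.682 and 0.64 CPM, and CCI+BZ libraries 0.427, 0.476 and 0.309 CPM. The 9 treated libraries rested on 6 to 14 counts each, and the highest of them lay far below the lowest sham library. The level fell by 5.4 on the log2 scale (SE 0.284, 95% interval -6.02 to -4.78, edgeR adjusted p = 6.62e-06), or 42.3-fold. The gene reached the minimum of 1 CPM in all 3 sham libraries and in 0 of the 9 treated ones, so it entered the test through sham alone, and it was the only gene tested with no treated library at that minimum. Without a filter on low counts the adjusted p was 1.2e-07. This call held under all 29 alternatives tried for it, with an adjusted p of 2.93e-52 to 0.0164. For the preparations taken singly the log2 fold change was -5.32 (YZP), -5.03 (YH) and -5.86 (BZ) (edgeR adjusted p = 0.00088, 0.00126 and 0.000484). Each of these 3 calls was lost in limma voom (adjusted p = 0.138, 0.151 and 0.707) and with all 15 libraries in the fit (0.08, 0.0984 and 0.428), and that of CCI+BZ also in voom with quality weights (0.311). Untreated CCI libraries held 0.613, 0.671 and 16.1 CPM when all 15 libraries were scaled together. Low levels were therefore found in 2 of 3 untreated ligated libraries as well, and the third stood between the sham values.

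**Figure D2:**
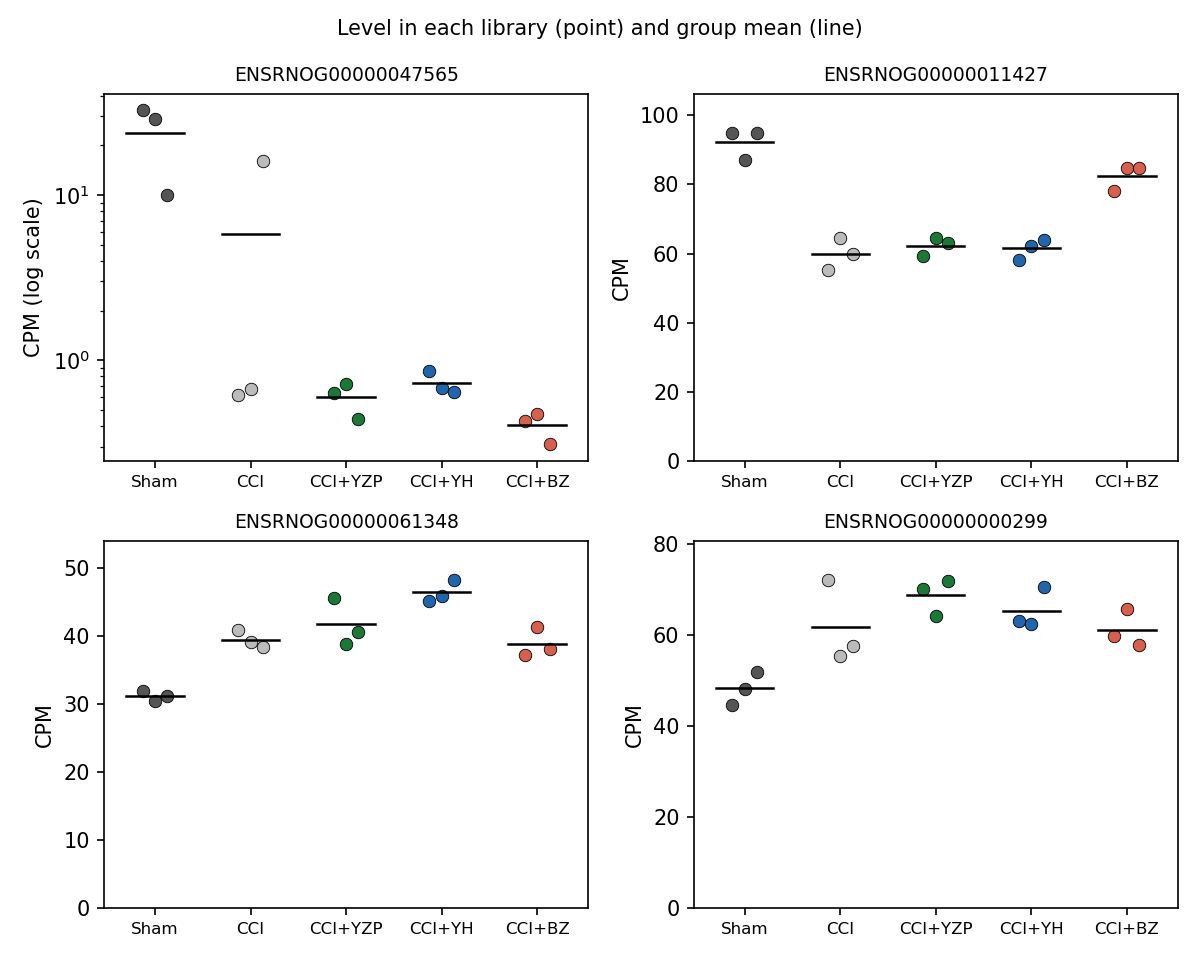
Each point is 1 library and each line a group mean, in CPM with all 15 libraries scaled together; the first panel has a log axis. In ENSRNOG00000047565 all 9 treated libraries lie below 1 CPM, whereas CCI replicate 3 stands at 16.1 CPM, and in ENSRNOG00000011427 CCI+BZ lies between sham and the other ligated groups.

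ENSRNOG00000011427 was lower in treated cord by a much smaller amount. Sham libraries held 94.5, 86.8 and 94.6 CPM. CCI+YZP libraries held 58.9, 64.2 and 62.6 CPM, and CCI+YH libraries 58, 61.9 and 63.8 CPM. CCI+BZ libraries held 77.9, 84.5 and 84.2 CPM. No treated library reached the lowest sham library, but CCI+BZ came closest to it and did not overlap with the other 6 treated libraries. The fall averaged 0.44 on the log2 scale (log2 fold change -0.44, SE 0.0491, edgeR adjusted p = 0.012). It was -0.57 in CCI+YZP (adjusted p = 0.00878) and -0.59 in CCI+YH (adjusted p = 0.00676), both called. In CCI+BZ it was -0.16, with a 95% interval of -0.3 to -0.03 (edgeR adjusted p = 0.667). The test of a difference among the 3 preparations passed for this gene (edgeR adjusted p = 0.048). The difference between CCI+YZP and CCI+YH was 0.02 on the log2 scale, with a 95% interval of -0.12 to 0.15. Untreated CCI libraries held 55.2, 64.6 and 59.9 CPM in the joint scaling, which overlaps with CCI+YZP and CCI+YH and not with CCI+BZ. The pooled call was lost without Sham replicate 1 (adjusted p = 0.104), Sham replicate 3 (0.0903), the CCI+YZP group (0.236) or the CCI+YH group (0.112), with the treated libraries as a single group (0.167) and with the covariate (0.052), in a range of 2.42e-11 to 0.236. The call of a difference among preparations was lost without any 1 of the 12 libraries (edgeR adjusted p 0.0569 to 0.369).

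ENSRNOG00000061348 was the 1 gene called higher in treated cord. Sham libraries held 31.7, 30.3 and 31.1 CPM. CCI+YZP libraries held 45.4, 38.7 and 40.5 CPM, CCI+YH libraries 44.9, 45.7 and 48 CPM, and CCI+BZ libraries 37, 41.1 and 37.9 CPM. Every treated library lay above every sham library. The log2 fold change was 0.44 (SE 0.0579, 95% interval 0.31 to 0.56, edgeR adjusted p = 0.0263), or 1.35-fold. By preparation it was 0.42 for YZP, 0.57 for YH and 0.32 for BZ (edgeR adjusted p = 0.0778, 0.0176 and 0.667). Untreated CCI libraries held 40.8, 39.1 and 38.4 CPM, inside the range of the treated libraries. The pooled call was lost in 12 of 29 alternatives, among them each sham library left out in turn (adjusted p = 0.152, 0.143 and 0.122), and each of CCI+YZP replicate 3 (0.0725), CCI+YH replicates 2 and 3 (0.0577 and 0.0502) and CCI+BZ replicate 2 (0.0706). Its log2 fold change stayed between 0.37 and 0.5 over those 29, and the adjusted p between 1.15e-06 and 0.192.

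ENSRNOG00000000299 had the second smallest p among genes higher in treated cord and did not pass the adjustment. Sham libraries held 44.5, 48.1 and 51.6 CPM. CCI+YZP libraries held 70, 63.9 and 71.6 CPM, CCI+YH libraries 62.9, 62.1 and 70.4 CPM, and CCI+BZ libraries 59.6, 65.5 and 57.5 CPM. The 2 sets of libraries did not overlap. The log2 fold change was 0.43 (SE 0.0659, 95% interval 0.29 to 0.57, edgeR adjusted p = 0.0646). By preparation it was 0.51, 0.44 and 0.34 for CCI+YZP, CCI+YH and CCI+BZ (edgeR adjusted p = 0.0461, 0.129 and 0.667), and the call in CCI+YZP was lost in 16 of 26 alternatives (adjusted p up to 0.263). The pooled difference passed in DESeq2 (adjusted p = 6.19e-06), voom with quality weights (0.00807), without a filter on low counts (0.0322), without CCI+BZ replicate 3 (0.0414) and without the CCI+BZ group (0.0275). Untreated CCI libraries held 72.1, 55.4 and 57.6 CPM, all above the sham libraries. In that scaling 2 of them lay just below the treated libraries, which ran from 57.8 to 71.9 CPM, and 1 just above.

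The other 4 called genes were all lower in treated cord, with log2 fold changes of -0.65 to -0.31 and adjusted p of 0.0263 to 0.0451. Their mean levels in sham ran from 22.9 to 206 CPM. In 3 of the 4, all 9 treated libraries lay below all 3 sham libraries. In the fourth, the highest treated library held 83.3 CPM and the lowest sham library 83.1 CPM. Over all genes tested, the treated libraries all lay below sham in 229 (1.5%). These 4 genes and the printed identifiers were chosen by p in this same contrast, so such separation is largely built into the choice. Set side by side for these 4, the log2 fold changes were -0.73, -0.72, -0.72 and -0.41 with YZP. With YH they were -0.69, -0.77, -0.75 and -0.27, and with BZ -0.23, -0.45, -0.25 and -0.25. The 3 contrasts share the sham libraries. None of the 4 passed the test of a difference among preparations (edgeR adjusted p = 0.212, 1, 0.341 and 1).

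**Figure D3:**
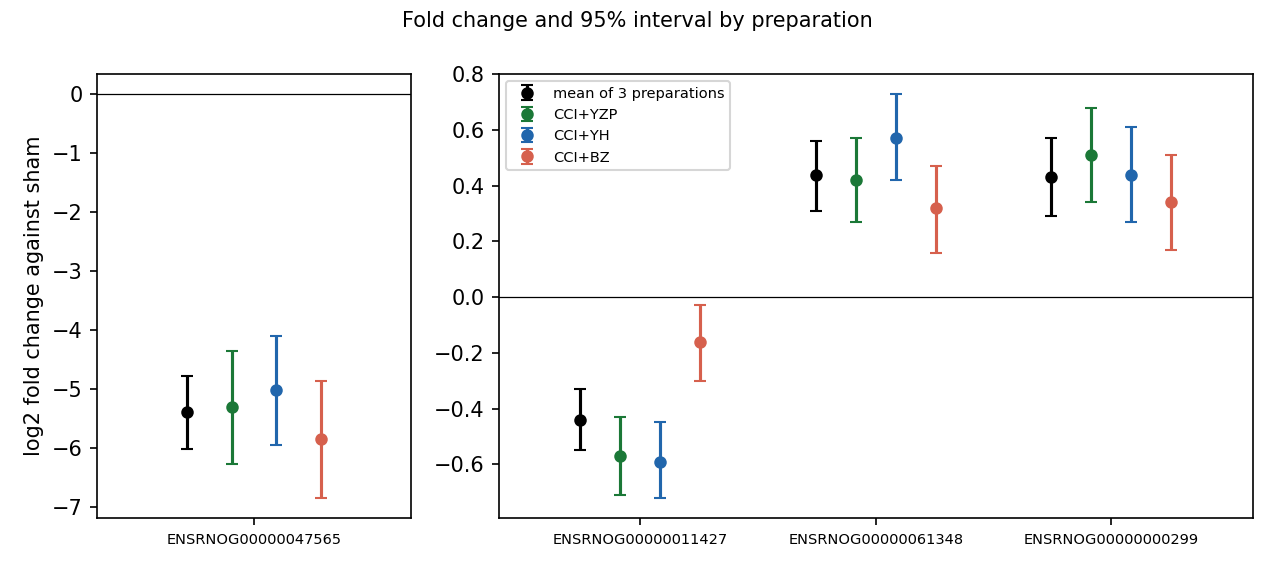
Points are log2 fold changes against sham and bars are 95% intervals from the edgeR fit, for the mean of the 3 preparations (black) and for each preparation; the panels have different vertical scales. The CCI+BZ interval of ENSRNOG00000011427, -0.3 to -0.03, lies above those of CCI+YZP and CCI+YH, while for ENSRNOG00000047565 the 3 intervals overlap.

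Beyond the called genes, 504 genes (3.3% of those tested) had all 9 treated libraries on one side of all 3 sham libraries. In 275 genes (1.8%) the treated libraries were above and in 229 (1.5%) below. The separated genes had a median log2 fold change of 0.34 where treated was above and -0.26 where it was below, and the direction here is fixed by how they were chosen. A log2 fold change of at least 1 in size was seen in 51 of the 275 and in 4 of the 229. The filter asks for 1 CPM in at least 3 libraries, which 3 of the 9 treated libraries or all 3 sham libraries can meet. It admitted 208 genes with no sham library at 1 CPM and 1 gene with no treated library there. The directions therefore did not enter the test equally, and how far this set the split was not tested. With all genes tested ranked by mean level into 4 bins of equal size, the groups were separated in 2.69%, 3.09%, 4.11% and 3.29% of genes from the lowest bin to the highest. Loci that the authors numbered without an Ensembl identifier made up 785 of the genes tested. Their median log2 fold change was -0.07, with 487 lower and 298 higher, beside 0 over all genes tested, with 7747 lower and 7547 higher.

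Most genes with a large fold change had overlapping groups, although separation was more frequent among them than over all genes. Of the 15294 genes, 272 had a fitted log2 fold change of at least 1 in size, 205 higher and 67 lower in treated cord. How far the filter set this split was not tested either. Of the 272, edgeR called 1, and 171 had an unadjusted edgeR p under 0.05. By its own fit, DESeq2 called 58 genes with a change of that size (49 higher, 9 lower). Limma voom with quality weights called 31 such genes by its own fit (19 higher, 12 lower). Among the 205 that were higher, 51 had no overlap between treated and sham, beside 275 of all 15294 genes (1.8%). In the 205, the 9 treated libraries spanned a median of 2.6 on the log2 scale, against 0.45 over all genes. Among the 67 that were lower, 4 had no overlap, beside 229 of all 15294 genes (1.5%). In the 67, the 3 sham libraries alone spanned a median of 2.67, against 0.23 over all genes. The largest fitted value among genes with all treated libraries above sham was 5.95, in a gene that edgeR did not call.

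Taken singly against sham, CCI+YZP had 12 genes called by edgeR (0.0785%), of which 6 were higher and 6 lower. CCI+YH had 8 (0.0523%), of which 2 were higher and 6 lower, and CCI+BZ had 1 (0.00654%), which was ENSRNOG00000047565. At an unadjusted p under 0.05 there were 1566 (10.2%), 1886 (12.3%) and 1113 (7.28%) genes, in the order YZP, YH, BZ. The calls of DESeq2 numbered 160 (1.05%), 198 (1.29%) and 16 (0.105%). Over all libraries left out in turn the edgeR counts ran from 1 to 16, from 1 to 54 and from 1 to 3. For CCI+YZP the count was 1 with Sham replicate 3 or its own replicate 1 removed, 2 with Sham replicate 1 removed, and 4 with its own replicate 2 or 3 or CCI+BZ replicate 2 removed. For CCI+YH it was 54 with CCI+BZ replicate 1 removed, 1 with Sham replicate 3 removed, 3 with its own replicate 1 removed, 4 with Sham replicate 1, CCI+BZ replicate 2 or its own replicate 3 removed, and 5 with CCI+YZP replicate 1 removed. For CCI+BZ it was 3 with Sham replicate 1 removed and 2 with CCI+YH replicate 3 removed. The counts themselves do not test whether the preparations differ.

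Which preparation lay nearest to sham was then counted gene by gene on group means of log2 CPM. Among the 504 separated genes, CCI+BZ was nearest in 53.2%, CCI+YZP in 27.8% and CCI+YH in 19%. Over all genes tested these shares were 40.1%, 31.4% and 28.5%. Single libraries weighed on this. CCI+BZ replicate 3 was the treated library nearest sham in 32.9% of the separated genes. Over all genes, it was the treated library least shifted in the direction of the fitted fold change in 20.5%. Where the groups overlap, such a library can lie past sham, so the 20.5% is not a share of nearness. Without it, CCI+BZ was nearest in 40.1% of the separated genes, CCI+YZP in 38.3% and CCI+YH in 21.6%, beside 31.1%, 36.8% and 32.1% over all genes. Without CCI+BZ replicate 1, which lay at the far end of the first component, CCI+BZ was nearest in 65.9% of the separated genes. Without CCI+YZP replicate 2 the order turned among the separated genes, with CCI+YZP nearest in 42.7% and CCI+BZ in 40.9%, while over all genes CCI+BZ still led with 38.2% against 32.7%. No test was made of these shares.

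**Figure D4:**
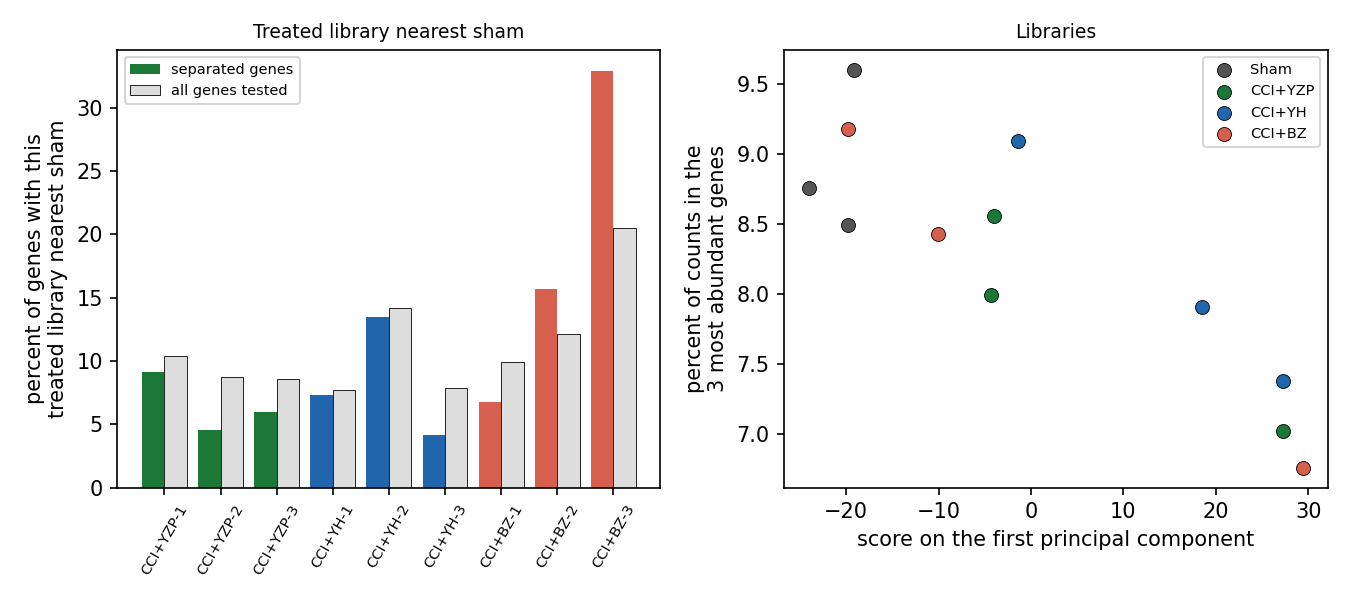
The left panel gives, for each treated library, the percent of the 504 separated genes (coloured) in which it was the treated library nearest sham. CCI+BZ replicate 3 leads with 32.9%. Grey bars give the percent of all genes tested in which the library was the least shifted in the direction of the fitted fold change. Where the groups overlap, such a library can lie past sham. The right panel plots the percent of counts in the 3 most abundant genes against the score on the first principal component, with 1 point per library; CCI+BZ replicate 3 lies with the sham libraries and CCI+BZ replicate 1 at the other end.

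The test of a difference among the 3 preparations does not use the sham values as a reference, and asks whether treated cord was alike whatever was given. It called 7 genes (0.0458% of those tested), and 633 had an unadjusted p under 0.05, or 4.14%. In all 7 genes the 3 CCI+BZ libraries lay outside the range of the other 6 treated libraries, below it in 5 and above it in 2. The genes were chosen for a difference among preparations, so some such separation is built into the choice. The CCI+YZP libraries lay outside the range of the other 6 in 1 of the 7, and so did the CCI+YH libraries. Over all genes tested, the libraries of CCI+BZ lay outside the other 6 in 424 genes (2.77%), those of CCI+YH in 296 (1.94%) and those of CCI+YZP in 253 (1.65%). These shares were not compared with those expected if the preparations did not differ. In 5 of the 7 the CCI+BZ mean was also nearer to sham than the other preparations. The mean levels of the gene with the smallest p were 7.87 CPM (sham), 13 CPM (YZP), 25.7 CPM (YH) and 1.95 CPM (BZ), so that CCI+BZ there lay on the far side of sham from the others. The same was seen in the genes ranked 2 to 5 by p. Their CCI+BZ means were 88.6, 81.1, 5.63 and 40.3 CPM, beside 105, 38.5, 6.44 and 50.3 CPM in sham. In the genes ranked 6 and 7, all 3 preparations lay on the same side of sham. ENSRNOG00000011427 was the only 1 of the 7 that was also called against sham. DESeq2 called 36 genes (0.235%) and limma voom 1 (0.00654%). Removing any 1 of the 12 libraries lowered the edgeR count to between 0 and 4. It was 0 with Sham replicate 1, CCI+YZP replicate 3, or either of replicates 1 and 2 of CCI+BZ removed. It was 1 with CCI+BZ replicate 3 or CCI+YZP replicate 1 removed, and 2 with CCI+YH replicate 1 removed. It was 3 with Sham replicate 2 or 3, CCI+YH replicate 3 or CCI+YZP replicate 2 removed, and 4 with CCI+YH replicate 2 removed. In the 4 fits with 0 calls, 558, 591, 860 and 510 genes had an unadjusted p under 0.05.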

How the data were processed

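Each library came as a table of whole-number raw counts deposited by the authors, with 34202 rows (32883 Ensembl identifiers and 1319 loci with a running number only). Trizol RNA went into a NEBNext Ultra RNA kit, per the labels' protocols. The submitters' processing notes name the build rn4 and DESeq2 1.16.1. For aligner, counter, annotation and strand setting, nothing is given in the sources used, so reads of overlapping, antisense or near-identical genes may be shared between them. The reference table (GRCr8, 47357 genes) held an Ensembl identifier for 0 genes, so the 39 gene lists drawn up by symbol could not be applied.

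Genes with at least 1 CPM in at least 3 of the 12 libraries were kept (15294 genes, 785 without an Ensembl identifier). With edgeR 4.0.16 in R 4.3.3, libraries were scaled by TMM and a quasi-likelihood model with 1 coefficient for each of the 4 groups was fitted, with 8 residual degrees of freedom and a common biological coefficient of variation of 15.6%. The main contrast was the equal-weight mean of the 3 treated coefficients minus sham. CPM are scaled by TMM, standard errors were derived from the F statistics, and p-values are Benjamini-Hochberg adjusted over all 15294 genes and called under 0.05, in each of 5 comparisons. The rule for naming allowed, in the absence of symbols, the 2 identifiers of smallest p in each direction. Principal components used log2 CPM with a prior count of 2. The scripts were tested on simulated data. Alternatives were DESeq2 1.42.0, limma 3.58.1 (voom), other scalings, filters, thresholds and sets of libraries. The covariate (the share of counts in the top 3 genes) and a fit to Ensembl rows alone were added after seeing the data. The comparison, its filter and the lists were chosen with earlier results of these data known. Libraries are taken as separate rats. The labels name no library-to-rat key, so p-values measure the spread between these libraries. Same-group libraries differed by more than sampling noise (chi-square per gene of 7.06 to 27 over 12 pairs).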

Additional observations from a re-analysis of the deposited data

Results flagged for a closer look

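ENSRNOG00000011427 differed among the 3 preparations (edgeR adjusted p = 0.048), with CCI+BZ at 82.2 CPM, CCI+YZP at 61.9 CPM and CCI+YH at 61.3 CPM. The same test of a difference between treated groups called 7 genes in all.

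The untreated CCI libraries, which entered only the alternative fit with all 15 libraries, also held levels above sham. The lowest of them held 38.4 CPM of ENSRNOG00000061348, above every sham library, and 55.4 CPM of ENSRNOG00000000299, again above every sham library. No library stood out by its distance from the other 8 treated libraries in any of the 4 printed identifiers or in the share of the 3 most abundant genes. Groups of 3 libraries were not examined in this way.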

How the results depend on the processing

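Counts are given in the order all treated, CCI+YZP, CCI+YH, CCI+BZ, each against sham, and then the difference among preparations, where edgeR called 7, 12, 8, 1 and 7 genes. RLE and upper-quartile scaling, filterByExpr, a mean count of at least 50 and a fit to Ensembl rows alone left each count within 1.5 times. DESeq2 called 246, 160, 198, 16 and 36. Limma voom moved CCI+BZ to 0 (1030 genes at an unadjusted p under 0.05) and the difference among preparations to 1. Voom with quality weights gave 284, 127, 137 and 0 against sham (1680 at an unadjusted p under 0.05 in CCI+BZ). For all treated against sham, no filter on low counts gave 13 and an adjusted p under 0.1 gave 32. A log2 fold change of at least 1 left 1, 1 and 1 for all treated, CCI+YZP and CCI+YH, and 2 for the difference among preparations. With all 15 libraries, all treated gave 17 and CCI+BZ 0 (1222 at an unadjusted p under 0.05). The treated libraries as a single group gave 1, and leaving out CCI+YZP, CCI+YH or CCI+BZ gave 1, 4 and 62. Fits of only the 2 groups compared gave 37, 15 and 3. The covariate gave 1, 4 and 18 for all treated, CCI+YZP and CCI+YH. Leaving out 1 library in turn gave 2 to 21, 1 to 16, 1 to 54, 1 to 3 and 0 to 4. The causes of these shifts were not tested.

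With the replicate number as a block the counts were 3, 3, 4, 1 and 1. The numbers are not shown to pair rats: 3 of 18 same-number pairs had deviations correlated above 0.1 (range -0.162 to 0.154), and 1 of 12 libraries correlated best with its own number.

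The 4 printed identifiers kept their direction against sham in each alternative. Of 428 such values, 366 stayed on their side of the threshold, 50 lost a call, 12 gained one and 0 reversed. Those that stayed include contrasts that were not called, such as CCI+BZ for every identifier but ENSRNOG00000047565. For the difference among preparations, which has no direction, 86 of 100 values stayed on their side and 14 lost a call. Only ENSRNOG00000011427 was called in that test, and its call was lost in 14 of 25 alternatives. The values of the other identifiers stayed uncalled. ENSRNOG00000047565 rests on 6 to 14 counts per treated library, which limits the precision of its fold change. Its level also varied within a group, from 0.613 to 16.1 CPM in untreated CCI. With all 15 libraries in the fit, its pooled edgeR adjusted p was 0.0093.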

Other observations

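Untreated CCI libraries, which are in neither group of the comparison with sham, were set against the range of the 9 treated libraries, with all 15 scaled together. Of the 275 genes with every treated library above sham, the CCI mean lay inside the treated range in 244 (88.7%), beyond it in 12 (4.36%) and short of it, toward sham, in 19 (6.91%). Of the 229 genes with every treated library below sham, it lay inside the range in 190 (83%), beyond it in 8 (3.49%) and short of it in 31 (13.5%). Both sets were chosen by the treated libraries, with CCI taking no part. Some CCI means short of the range are therefore built into the choice. Over all genes tested the CCI mean lay inside the treated range in 91.7%, beyond it in 4.11% and short of it in 4.17%. In 6 of the 7 called genes it lay inside the range. ENSRNOG00000047565 was the exception, since CCI replicate 3 brought the CCI mean to 5.79 CPM.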
